A study of Mus musculus with 16 samples.

Results

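The genes described here make, bind and sense retinoic acid, and were followed across mouse embryonic hearts of 5 genotypes. They were chosen by name as 9 members of the pathway, namely Rdh10, Aldh1a2, Dhrs3, Cyp26a1, Crabp1, Crabp2, Rara, Rarb and Rarg. All probes annotated to them were taken, which gave 11 of the 25696 probes of the array for 7 of the 9 genes (10153 genes had a named probe in all). Dhrs3 and Cyp26a1 had no probe in the annotation used and their levels were not analysed here. All 11 probes passed the filter on dim probes, which required a detection p-value under 0.05 on at least 2 of 16 arrays and kept 14058 probes.

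Retinoic acid is made from vitamin A in a pair of oxidation steps. RDH10 turns retinol into retinaldehyde, which DHRS3 can reduce back to retinol, and ALDH1A2 (RALDH2) then makes retinoic acid, while CYP26A1 breaks it down. CRABP1 and CRABP2 bind retinoic acid in the cytoplasm, and the receptors RARα, RARβ and RARγ, each paired with an RXR, bind it on DNA and switch target genes on. In the mouse embryo the acid made in posterior mesoderm helps to set the inflow end of the heart tube and the limit of the second heart field, and the epicardium later becomes a source. Rarb is itself a classic target, since its inner promoter carries a retinoic acid response element.

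The series asked how RBPJ, the DNA-binding partner of Notch, and Axin2, a brake on Wnt signalling, act in heart formation. RNA of embryonic hearts was read on Illumina beadchips, whose probes report a transcript's level as the brightness of their beads. KO hearts (3 arrays) carried MesP1-cre, which is active in early mesoderm and its descendants, with both Rbpj alleles floxed (RBPJlox/lox). DKO hearts (4 arrays) were in addition Axin2-/-, and DKOhet hearts (2 arrays) were RBPJlox/lox with MesP1-cre and Axin2+/-. The hetDKO hearts (3 arrays) carried MesP1-cre and were RBPJlox/+ and Axin2-/-, so 1 Rbpj allele could not be deleted. Controls (4 arrays) were labelled wild type. Where KO, DKO or DKOhet hearts are set against controls alone, MesP1-cre and Rbpj loss therefore cannot be told apart. Every embryo was of mixed C57/BL6;129Ola background and staged at E9.25, with 22 to 24 somites. KO, DKO and DKOhet are together called Rbpj-deleted below (9 arrays), and hetDKO and control are called Rbpj-expressing (7 arrays). Cells outside the Mesp1 lineage keep Rbpj in all of these hearts.

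Between 12360 and 13196 probes were detected per array, and arrays of the same group correlated at 0.970 to 0.989 over the kept probes. Neither Rbpj nor Axin2 had a named probe, so the genotype labels could not be checked by the targeted genes. The tissue label was checked with myocardial markers. Of 9 with a probe, 8 were detected on all 16 arrays, among them Myl7 at 13.74 to 15.25 in Rbpj-deleted and 13.91 to 15.42 log2 signal in Rbpj-expressing hearts, and Ryr2 was detected on 1 array of each class. Myocardial signal does not show that a sample held heart tissue alone. Among markers of neural and endodermal tissue, Tfap2a, Sox2, Foxa1 and Foxe1 were also detected on all 16 arrays. Dbx1 and Nkx2-1 were detected on 10 arrays each, Afp on 15 and Foxa2 on 3. In RNA of whole hearts, fewer cells of a type and less RNA per cell cannot be told apart.

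The promoter of Rarb is shown because Rarb is the member that passed the test in the most comparisons. The RefSeq window of 250 bases before to 50 bases after the transcript's start lies at chr14:16575427-16575726 (GRCm38.p6, minus strand), inside the Rarb gene, which spans 16430839 to 17082331 on chromosome 14. A response element of the kind called DR5 is a direct repeat of a motif of 6 bases with 5 bases between the copies. It was searched on both strands, and each copy could be AGGTCA, or instead AGTTCA, or else GGGTCA, or lastly GGTTCA (4 spellings). Capitals mark the match in the Rarb window, printed 5′ to 3′ on the gene's strand:
Rarb promoter: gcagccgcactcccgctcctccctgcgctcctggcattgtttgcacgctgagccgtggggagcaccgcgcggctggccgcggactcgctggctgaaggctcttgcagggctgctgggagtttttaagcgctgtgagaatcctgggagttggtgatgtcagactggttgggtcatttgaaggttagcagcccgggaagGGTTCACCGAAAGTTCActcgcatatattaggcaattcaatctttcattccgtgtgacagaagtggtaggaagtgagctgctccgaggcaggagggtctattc

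Among the members, 7 genes had 13 such windows (none for Rdh10 or Crabp2), and 2 genes held a DR5 of these spellings within them. A DR5 outside these windows or in another spelling was not searched for. The match of Cyp26a1, on the strand opposite to the gene in the window chr19:37697558-37697857, is set beside that of Rarb with the copies of the motif in capitals:
Rarb DR5: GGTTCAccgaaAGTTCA
Cyp26a1 DR5: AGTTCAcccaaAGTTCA
The Rarb match covers bases 53 to 37 before the start (chromosome 14, 16575513 to 16575529), and the Cyp26a1 match bases 32 to 16 before it (chromosome 19, 37697776 to 37697792). A DR5 was found in 32 of 32851 promoter windows of the same length, or 0.0974%. The repeats with spacers of 2 and 1 bases, DR2 and DR1, were in 0.268% and 0.222% of windows and in no member's. The letters GTGGGAA, the core of the RBPJ site, were found on either strand in 6.38% of windows and, among the members, only in windows of Rara, 213 bases before the start of one of its transcripts. These matches describe the letters and do not show that a factor binds there.

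By its brightest probe, Rarb was higher in all 3 genotypes that had lost Rbpj in the Mesp1 lineage, and did not pass the test in hetDKO hearts. That probe, ILMN_2886828, read 10.75, 10.53 and 10.81 log2 signal in KO hearts. It read 11.07, 10.92, 11.30 and 10.64 in DKO hearts and 10.92 and 11.17 in DKOhet hearts. The hetDKO arrays read 10.44, 10.16 and 10.25, and the controls 10.13, 10.30, 10.10 and 10.09. Every Rbpj-deleted array lay above every Rbpj-expressing one, with 10.53 as the lowest of 9 against 10.44 as the highest of 7. Arrays of these classes failed to overlap, in either direction, for 6.15% of all probes tested.

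In linear terms the mean signal of that probe was 1.46-fold higher in KO hearts (log2 difference 0.54 ± 0.15 SE, limma adjusted p = 0.0387), 1.78-fold higher in DKO hearts (0.83 ± 0.14, adjusted p = 0.00179) and 1.85-fold higher in DKOhet hearts (0.89 ± 0.17, adjusted p = 0.00605), each against the same 4 controls. Rarb was the 1 of 7 measured genes past the threshold of 0.05 in each of these comparisons, where 7.55%, 13.2% and 8.61% of all probes passed in KO, DKO and DKOhet hearts. In hetDKO hearts the difference from controls was 0.13 (95% interval -0.18 to 0.44, limma adjusted p = 0.998). No member passed there, and 0% of all probes did, while 547 of 14058 probes had an unadjusted p under 0.05. The KO call was close to the threshold: it was lost in 5 of 12 other settings, among them median scaling (adjusted p = 0.0666), and when any of 6 single arrays was left out. Both DKOhet arrays were on beadchip 2, and the DKOhet call was lost within that beadchip (0.85, adjusted p = 0.151) and without the 2nd DKOhet array (0.77, adjusted p = 0.0582).

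A separate probe for the same gene, ILMN_2617194, read 10.43, 10.35 and 10.60 in KO hearts, 10.84, 10.91, 10.99 and 10.84 in DKO hearts and 10.69 and 11.11 in DKOhet hearts. The hetDKO arrays read 10.20, 9.91 and 10.13, and the controls 9.71, 10.19, 10.00 and 10.28. The Rbpj-deleted arrays again lay above all others. The difference from controls was 0.85 ± 0.13 in DKO hearts (limma adjusted p = 0.00139) and 0.85 ± 0.16 in DKOhet hearts (adjusted p = 0.00729), and in KO hearts it was 0.42 ± 0.15 and missed the threshold (adjusted p = 0.0926). These 2 probes followed each other over the 16 arrays with a Pearson r of 0.92, as a description.

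The remaining Rarb probe, ILMN_1246864, was dim. It was detected on 0 of 3 KO, 3 of 4 DKO, 1 of 2 DKOhet, 0 of 3 hetDKO and 2 of 4 control arrays. Its fitted differences from controls were 0.48 in DKO hearts (limma adjusted p = 0.0634) and 0.22 in DKOhet hearts, and neither passed the threshold. No size is given for KO hearts, where it was not well above background. The labels and files do not state which Rarb transcripts each probe reads.

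**Figure D1:**
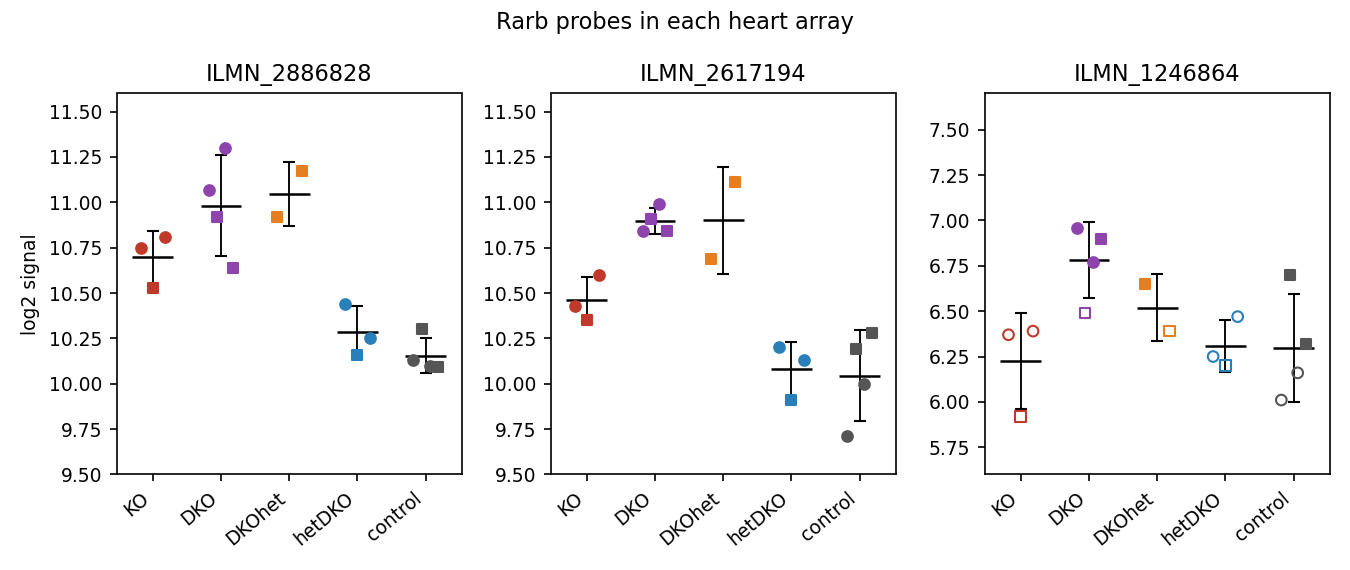
Log2 signal of the 3 Rarb probes (panels) on each array, by genotype along the horizontal axis. Circles are arrays of beadchip 1 and squares of beadchip 2, filled where the probe was detected (detection p under 0.05) and open where not, with black lines for group means and bars for SD; the panel of the dim ILMN_1246864 has its own vertical range of equal height. On ILMN_2886828 and ILMN_2617194 the KO, DKO and DKOhet arrays, at 10.35 or above, lie above all hetDKO and control arrays of the same probe.

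Taking the mean of the 3 Rbpj-deleted group means against the mean of the other 2, Rarb was 1.61-fold higher (log2 difference 0.69 ± 0.10, 95% interval 0.48 to 0.90, limma adjusted p = 0.000248 for ILMN_2886828 and 0.000235 for ILMN_2617194). In this comparison, which uses all 16 arrays and overlaps with those above, 26.4% of all probes passed and 2 of 7 member genes did, Rarb and Rara, both upward. Within beadchip 1 the Rarb difference was 0.75 (adjusted p = 0.00696) and within beadchip 2 it was 0.61 (adjusted p = 0.139). Within beadchip 2, whose groups hold 1 or 2 arrays each, 154 probes passed in all.

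Adding homozygous Axin2 loss to Rbpj loss gave the Rarb probes higher mean values that did not pass the test. DKO minus KO was 0.29 (95% interval -0.03 to 0.60) for ILMN_2886828 and 0.43 (0.12 to 0.74) for ILMN_2617194. For ILMN_1246864, which no KO array and 3 of 4 DKO arrays detected, the ratio of the DKO to the KO mean was bounded from below at 1.24-fold, without allowance for spread. The limma adjusted p was 0.976 for each of the 3 probes. All 4 DKO arrays lay above all 3 KO arrays on ILMN_2617194 and on ILMN_1246864, which was so in one direction or the other for 4.89% of all probes, and overlapped with them on ILMN_2886828. Only 2 probes of the whole array, or 0.0142%, passed in DKO against KO, none of them a member's. DKO and DKOhet hearts differed by -0.06 on ILMN_2886828 (95% interval -0.42 to 0.29), and no probe of the array passed there (0%), with 551 at an unadjusted p under 0.05 in limma.

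Against hetDKO hearts, which share the Axin2-/- genotype, Rarb was 1.62-fold higher in DKO hearts (0.70 ± 0.15, limma adjusted p = 0.0111 for ILMN_2886828) and 1.76-fold higher by ILMN_2617194 (0.82 ± 0.15, adjusted p = 0.00430). It was the 1 member gene past the threshold, where 7.85% of all probes passed. Whether the step from KO to DKO differed from the step from control to hetDKO was tested as an interaction. For ILMN_2886828 the difference of differences was 0.16 (limma adjusted p = 0.977). It was larger for ILMN_2617194, at 0.40 (limma unadjusted p = 0.0730, adjusted p = 0.938). For the dim ILMN_1246864 it was fitted at 0.55 (limma unadjusted p = 0.0443, adjusted p = 0.938). No KO or hetDKO array detected ILMN_1246864, so this size is uncertain. In the interaction 0 of 7 members and 0.00711% of all probes passed in limma. By their brightest probes, 0 members had an unadjusted p under 0.05. The hetDKO hearts carried MesP1-cre and 1 floxed Rbpj allele while controls were labelled wild type, so this contrast does not isolate Axin2 loss.

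Rara, the broadly expressed RARα gene on chromosome 11, had 1 probe, ILMN_2661242, which was detected on all 9 Rbpj-deleted arrays and on 1 of 7 Rbpj-expressing ones. It read 6.96, 6.98 and 7.14 log2 signal in KO hearts, 7.18, 7.15, 7.36 and 7.22 in DKO hearts, and 6.69 and 8.08 in DKOhet hearts. The hetDKO arrays read 6.19, 6.45 and 6.37, and the controls 6.37, 6.38, 6.46 and 7.48. Apart from the 4th control, every Rbpj-expressing array lay below every Rbpj-deleted one, and the 2 DKOhet arrays lay far apart.

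Over all arrays Rara was 1.63-fold higher in Rbpj-deleted hearts (log2 difference 0.71 ± 0.19, limma adjusted p = 0.0155). The difference was 0.81 within beadchip 1 (adjusted p = 0.00617) and 0.49 within beadchip 2 (adjusted p = 0.575). It ranged from 0.48 to 0.94 when single arrays were left out, passed in all 16 of these fits, and was smallest without the 2nd DKOhet array. Against the controls alone it was 0.36 in KO hearts (adjusted p = 0.485), 0.56 in DKO hearts (adjusted p = 0.185) and 0.71 in DKOhet hearts (adjusted p = 0.189), none past the threshold. Without the 4th control the DKO and DKOhet differences were 0.83 and 0.98 and passed (adjusted p = 0.0321 and 0.0338). The fitted difference between DKO and hetDKO hearts was 0.89 and missed the threshold (limma adjusted p = 0.0728). As the probe was not well above background on any hetDKO array, the ratio of these group means was bounded from below at 1.59-fold, without allowance for spread.

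Rarg, the RARγ gene on chromosome 15, was detected on every array by both of its probes and passed in no comparison. ILMN_2618068 read 8.18, 8.04 and 8.49 in KO hearts, 8.24, 7.81, 8.74 and 8.20 in DKO hearts, 8.31 and 8.67 in DKOhet hearts, 8.17, 7.93 and 8.24 in hetDKO hearts and 7.99, 7.69, 8.10 and 8.51 in controls. These ranges overlapped throughout, apart from DKOhet against hetDKO. Rbpj-deleted minus Rbpj-expressing was 0.23 (95% interval -0.08 to 0.54, limma adjusted p = 0.272) for this probe and 0.21 (-0.15 to 0.58, adjusted p = 0.392) for ILMN_3132660. The 2 Rarg probes hardly followed each other over the 16 arrays (Pearson r = 0.15, a description).

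Rdh10, the retinol dehydrogenase gene on chromosome 1, was read by ILMN_2804091 at 6.63, 6.08 and 5.89 log2 signal in KO hearts, 6.67, 6.66, 6.52 and 6.70 in DKO hearts and 6.78 and 7.28 in DKOhet hearts. The hetDKO arrays read 6.80, 6.55 and 6.55, and the controls 6.88, 6.74, 6.51 and 6.43. The 2 lowest values were the 2nd and 3rd KO arrays, on which the probe was not detected. KO minus control was -0.44 (95% interval -0.81 to -0.06) and missed the threshold (limma adjusted p = 0.142). Without the 1st KO array it was fitted at -0.65 and passed (adjusted p = 0.0420), but no remaining KO array detected the probe, so this size is uncertain. Rbpj-deleted and Rbpj-expressing hearts as classes differed by -0.01 (95% interval -0.27 to 0.24).

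Aldh1a2, which encodes the enzyme that makes most retinoic acid in the early embryo, passed in no comparison. On ILMN_2630749 the signal was 8.39, 8.24 and 7.96 in KO hearts, 8.18, 8.38, 7.97 and 7.94 in DKO hearts, and 7.63 and 9.07 in DKOhet hearts. The hetDKO arrays read 8.71, 8.29 and 8.94 and the controls 7.91, 8.32, 7.91 and 7.56. The hetDKO arrays held the upper range but overlapped with controls by 1 array on either side. That difference was 0.73 ± 0.28 (unadjusted p = 0.0198, limma adjusted p = 0.998). On the other probe, ILMN_2630753, it was 0.09 (95% interval -0.34 to 0.51), and the 2 probes had a Pearson r of 0.73 over the 16 arrays. Rbpj-deleted minus Rbpj-expressing was -0.07 (95% interval -0.47 to 0.33) and -0.22 (-0.50 to 0.07) on these probes.

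**Figure D2:**
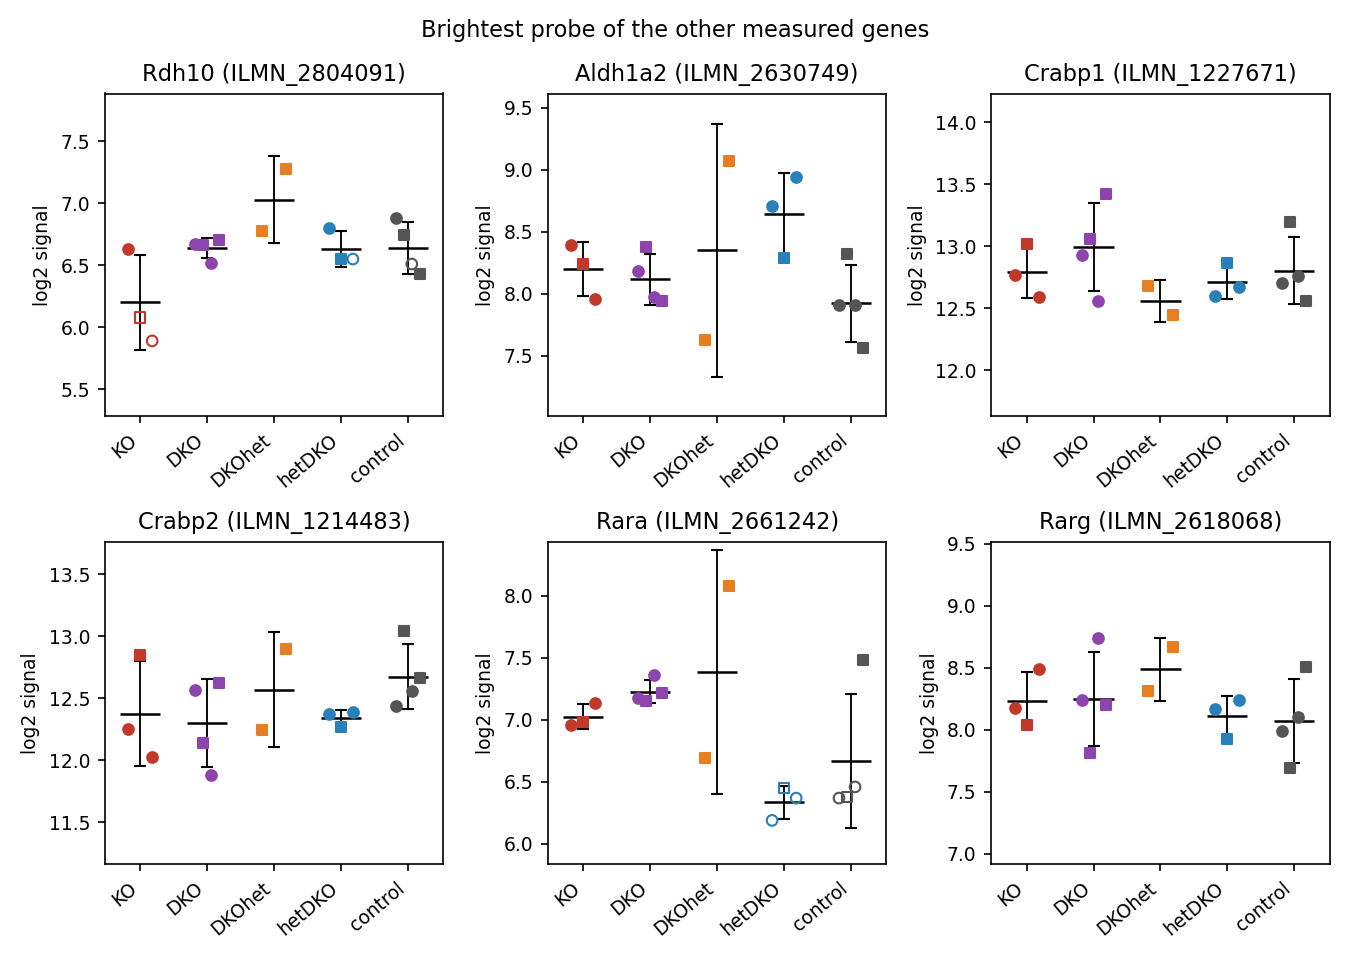
Log2 signal of the brightest probe of Rdh10, Aldh1a2, Crabp1, Crabp2, Rara and Rarg (panels) on each array by genotype, with the same symbols, group means and SD bars as in the plot of Rarb; each panel spans the same height in log2 units around its own level. Rara is filled (detected) on all KO, DKO and DKOhet arrays and open on all hetDKO and control arrays but the control at 7.48, while for Crabp1 and Crabp2 the Rbpj-deleted arrays overlap with the Rbpj-expressing ones.

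Crabp1, whose protein binds retinoic acid in the cytoplasm and is linked to its breakdown, was bright on all arrays and passed in no comparison. Its probe ILMN_1227671 read 12.59 to 13.02 in KO hearts, 12.56 to 13.42 in DKO hearts, 12.44 and 12.68 in DKOhet hearts, 12.60 to 12.86 in hetDKO hearts and 12.56 to 13.19 in controls. Rbpj-deleted minus Rbpj-expressing was 0.03 (95% interval -0.25 to 0.30), and its groups overlapped throughout.

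Crabp2, whose protein hands retinoic acid to the receptors, was read by ILMN_1214483 at 12.03 to 12.85 in KO hearts, 11.88 to 12.62 in DKO hearts, 12.24 and 12.90 in DKOhet hearts, 12.27 to 12.39 in hetDKO hearts and 12.44 to 13.04 in controls. The 3 hetDKO arrays lay below all 4 controls, which was so in either direction for 5.27% of all probes. The difference from controls was -0.30 in KO, -0.38 in DKO, -0.11 in DKOhet and -0.33 in hetDKO hearts, and none passed (lowest limma adjusted p = 0.267, in DKO hearts).

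Over the 7 genes by their brightest probes, the median log2 difference from controls was 0.16 in KO, 0.19 in DKO, 0.42 in DKOhet and -0.00 in hetDKO hearts, against -0.02, -0.02, -0.02 and 0.00 over all probes. It was 0.03 for Rbpj-deleted against Rbpj-expressing hearts, against -0.02 over all probes. By class the brightest probes of the receptors read 0.69 (Rarb), 0.71 (Rara) and 0.23 (Rarg), of which Rarb and Rara passed, and those of the enzymes and binding proteins lay between -0.09 (Crabp2) and 0.03 (Crabp1).

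**Figure D3:**
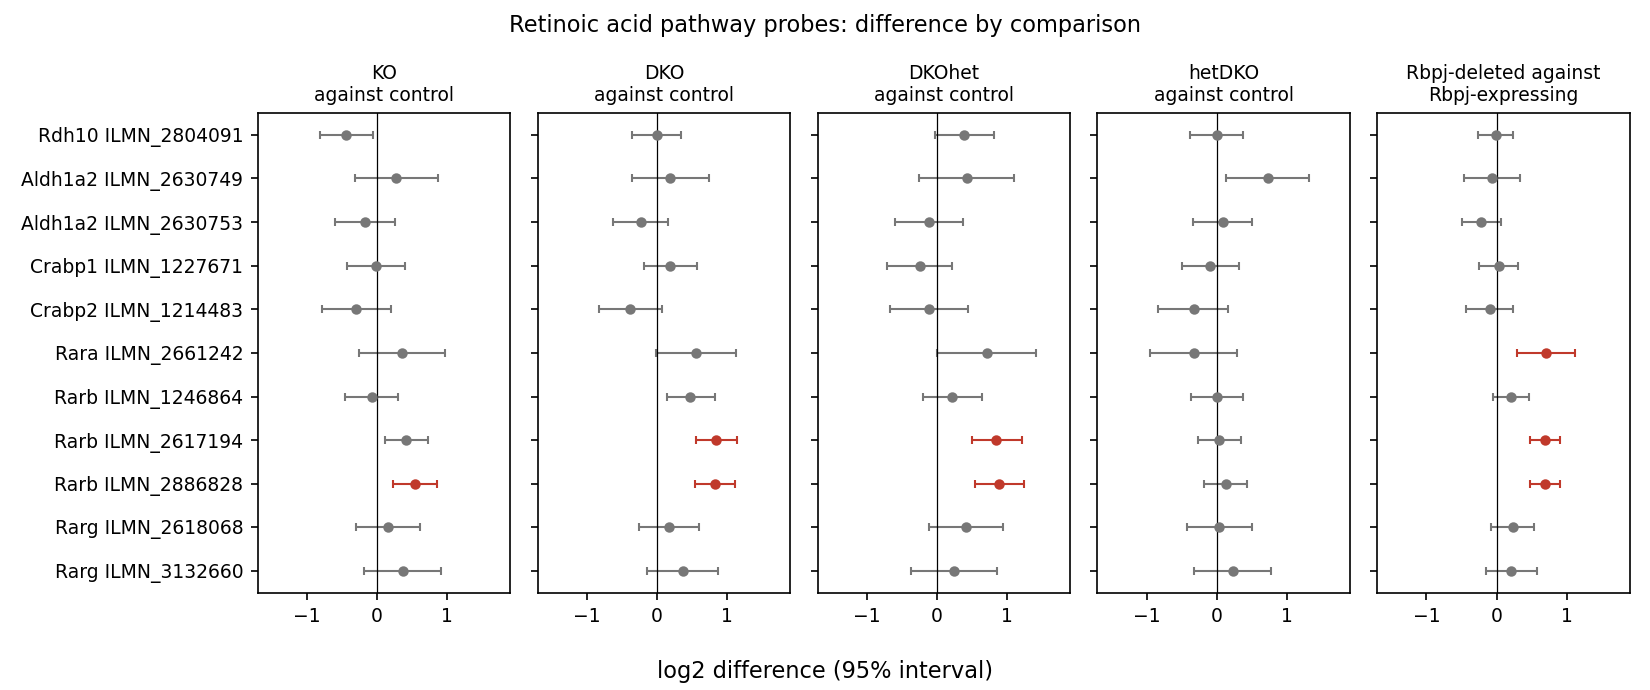
Log2 difference (horizontal axis, points) with its 95% interval (bars) for each of the 11 probes in 5 comparisons, red where the limma adjusted p was under 0.05 and grey otherwise. Rarb probes ILMN_2617194 and ILMN_2886828 are red in 3 or 4 panels and lie at 0.04 and 0.13 in hetDKO hearts, and Rara is red only in the last panel.

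The wider retinoid pathway was followed with a list of 42 genes for other retinol and retinal enzymes, carriers, RXR receptors and their cofactors. Of these 27 had a kept probe, and the 4 comparisons with control that follow share their control arrays. In KO hearts 1 rose (Rxrg) and 1 fell (Dhrs4), in DKO hearts 3 rose (Retsat, Rxra and Ncoa1), in DKOhet hearts 1 rose (Ncoa1), and in hetDKO hearts 0 passed in limma (smallest p for Cyp26b1, a further degrading enzyme, at -0.39 and an adjusted p of 0.998, and Fabp5 at 0.30 with the same adjusted p). Of all probes, 7.55%, 13.2%, 8.61% and 0% passed in KO, DKO, DKOhet and hetDKO hearts, so the counts of this list were near or below the share over all probes. The DKO count rested on few arrays, as it was 0 without the 3rd DKO array or the 3rd control.

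In Rbpj-deleted against Rbpj-expressing hearts 6 of the 27 rose and 2 fell, with a median log2 difference of 0.10. Of all probes, 12.2% passed upward and 14.3% downward, and 26.4% in either direction. Rbp4, the carrier of retinol in blood plasma, had a median of 7.57 (range 7.25 to 8.93) in Rbpj-deleted and 6.69 (5.52 to 7.86) in Rbpj-expressing hearts, a log2 difference of 1.10 ± 0.29 (limma adjusted p = 0.0123). It was detected on 9 of 9 and 4 of 7 arrays, and the ranges overlapped. Ncoa1, a coactivator that nuclear receptors recruit, was 0.67 higher (adjusted p = 0.00157), Adh1, an alcohol dehydrogenase that acts on retinol, 0.51 higher (adjusted p = 0.0244) and Retsat, a retinol saturase, 0.50 higher (adjusted p = 0.00758). Adh1 was detected on 9 of 9 Rbpj-deleted and 3 of 7 Rbpj-expressing arrays.

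Among the RXR genes, whose products pair with the RARs, Rxra was 0.41 higher (limma adjusted p = 0.0374) in Rbpj-deleted hearts. Its probe was detected on 8 of 9 Rbpj-deleted and 3 of 7 Rbpj-expressing arrays. Rxrg also passed upward (adjusted p = 0.00916), but its size by class is not given because the probe was at background on most arrays. Rxrb did not pass, with medians of 11.22 and 11.26 in Rbpj-deleted and Rbpj-expressing hearts. Rxrg was not detected on any Rbpj-expressing array and on 4 of 9 Rbpj-deleted ones, and in KO hearts, where all 3 arrays detected it, it was at least 1.17-fold higher than in controls. Dhrs4, a reductase that acts on retinal, fell by 1.06 on the log2 scale (adjusted p = 0.00209), with medians of 6.80 and 7.84 in Rbpj-deleted and Rbpj-expressing hearts. It was detected on 6 of 9 and 7 of 7 of these arrays. Fabp5, a fatty acid binding protein that can carry retinoic acid to another nuclear receptor, fell by 0.52 (adjusted p = 0.00266), with medians of 8.92 and 9.39 in Rbpj-deleted and Rbpj-expressing hearts. Within beadchip 1 this list had 3 genes higher and 1 lower, and within beadchip 2 it had 0 of either.

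Genes known to be switched on by retinoic acid in embryos or cultured cells were followed with a list of 28, of which 19 had a kept probe. In KO hearts 0 passed in limma, and the smallest p-values belonged to Hoxb4 (0.55, adjusted p = 0.110) and Hoxa2 (-0.36, adjusted p = 0.130). In DKO hearts 4 rose, namely Hoxb4 (0.89, adjusted p = 0.00746), Hoxb5 (0.94, adjusted p = 0.0484), Meis1 (0.35, adjusted p = 0.0320) and Meis2 (0.47, adjusted p = 0.00521), and none fell. In DKOhet hearts 1 rose (Meis1, 0.49, adjusted p = 0.0264). These 4 and 1 of 19 genes stand beside 13.2% and 8.61% of all probes in the DKO and DKOhet comparisons. In hetDKO hearts 0 passed, with the smallest p-values for Hoxb4 (0.65) and Hoxb5 (0.89), each at a limma adjusted p of 0.998.

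By class, Hoxb4, Meis1 and Meis2 rose in Rbpj-deleted hearts (0.40, 0.32 and 0.32, limma adjusted p = 0.0422, 0.00509 and 0.00334), none of the 19 fell, and the median was 0.06. With 12.2% of all probes passing upward, 3 of 19 is near the share over all probes. Hoxb4 and Hoxb5 are HOX genes of the hindbrain and trunk axis, and Meis1 and Meis2 encode cofactors of HOX proteins. Hoxb4 averaged 9.61 ± 0.39 in KO, 9.96 ± 0.20 in DKO, 9.79 ± 0.21 in DKOhet and 9.71 ± 0.11 in hetDKO hearts, against 9.06 ± 0.35 in controls (SD, n = 3, 4, 2, 3 and 4), so the controls were the low group for this gene and hetDKO hearts were not. The DKO count was between 2 and 4 when single arrays were left out, and it was 0 within either beadchip.

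**Figure D4:**
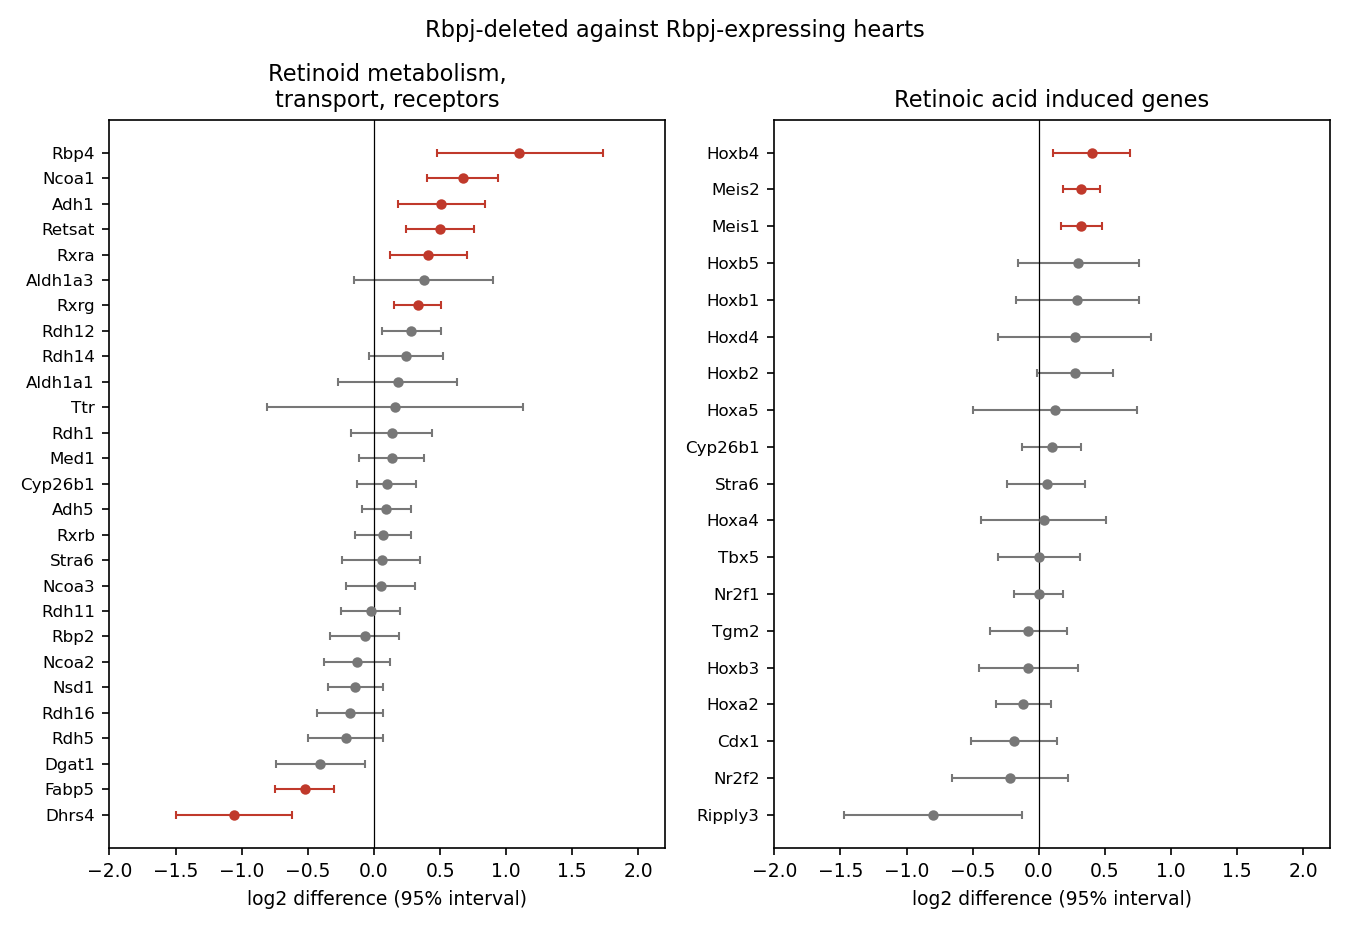
Log2 difference between Rbpj-deleted and Rbpj-expressing hearts (horizontal axis, points) with its 95% interval (bars) for each gene with a kept probe in the wider retinoid list (left, 27 genes) and the list of retinoic acid induced genes (right, 19 genes), red where the limma adjusted p was under 0.05. Rxrg is drawn at its fitted value although it was not detected on Rbpj-expressing arrays. Rbp4 lies highest at 1.10 and Dhrs4 lowest at -1.06, and on the right Hoxb4, Meis2 and Meis1 are the red points.

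Some markers of the epicardium and its precursor were also higher in Rbpj-deleted hearts. Of 9 markers with a kept probe, 3 rose in KO, 3 in DKO and 4 in DKOhet hearts, 0 in hetDKO hearts, and 5 rose by class, namely Krt19 (1.75), Upk3b (1.16), Wt1 (0.94), Krt8 (0.86) and Krt18 (0.60), with limma adjusted p from 1.66e-06 to 0.0339. The other 4 (Tbx18, Tcf21, Upk1b and Podxl) did not pass by class. The list was chosen with earlier results of these data known, so its counts are a description and not independent support. Of all probes, 7.55%, 13.2%, 8.61% and 0% passed in KO, DKO, DKOhet and hetDKO hearts, and 12.2% passed upward by class. Krt19, a keratin of the mesothelium, averaged 10.20 ± 0.27 in KO, 9.90 ± 0.23 in DKO and 10.10 ± 0.39 in DKOhet hearts, and 8.37 ± 0.39 in hetDKO and 8.27 ± 0.23 in control hearts (SD, n = 3, 4, 2, 3 and 4). Summed over the 9 markers, the linear signal was 17713 to 31677 in Rbpj-deleted and 12395 to 18364 in Rbpj-expressing hearts. Krt8, the brightest of the 9 at 13.14 to 13.95 and 12.25 to 13.18 log2 signal in these classes, weighs most in this sum. All 9 were detected on at least some arrays. Tbx18, a transcription factor gene of the proepicardium, was detected on both DKOhet arrays and on none of the controls, and was at least 2.16-fold higher in DKOhet hearts (limma adjusted p = 0.0338). It was also detected on 2 of 3 hetDKO arrays, with means of 6.62 in hetDKO, 6.61 in DKO and 6.18 in KO hearts, so it did not follow Rbpj loss alone. The markers' part in the Rarb and Rara results was not tested.

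In the other marker lists, of 5 to 9 genes each, 0 to 3 genes passed by class, where 26.4% of all probes did. The neural list, with 3 of 6, lay above that share. Of the second heart field and pharyngeal list 1 of 6 rose (Fgf10, 0.87), of the myocardial list 1 of 9 rose (Nppa, 0.46), and of the endothelial list 1 of 8 rose (Pecam1, 0.48) and 1 fell (Nfatc1, by 0.59). Of the foregut and liver list 2 of 8 fell (Foxe1 and Nkx2-1), and Afp and Apoa1, plasma proteins of the liver bud and yolk sac, did not pass. Of the neural list 2 of 6 rose (Tfap2b and Ednrb) and Dbx1 fell by 2.56, and of the inflow list and the blood list 0 of 5 and 0 of 6 passed in limma. Dbx1 was detected on 3 of 9 Rbpj-deleted and 7 of 7 Rbpj-expressing arrays. The part of these lists in the member results was not tested either.

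The genes most like each member over the 16 arrays were ranked by Pearson r with the member's brightest probe, which is a description in which group differences, beadchip and array quality are shared. For Rarb they were Glt8d1 (0.971), Atraid (0.943) and Pigp (0.941), and for Rara Slc16a3 (0.935), Wiz (0.918) and Hectd2 (0.916). Rarg was closest to Cog6 (0.913), Cryzl1 (0.892) and the retinol dehydrogenase gene Rdh14 (0.872). Crabp1 was closest to Gpd2 (0.920), Crabp2 to Aoc2 (0.891), Aldh1a2 to Ccdc65 (0.822) and Rdh10 to Gpr83 (0.810). Between members, Rara followed Rarb at 0.64 and Rarg at 0.65, Crabp1 ran against Rarg at -0.67, and Aldh1a2 and Rarb had an r of 0.14.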

How the data were processed

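RNA of 16 embryonic hearts was hybridised to arrays on 2 Illumina beadchips. The deposited table of non-normalised values lists, per the file headers, an average signal (an intensity) for 25696 probes on every array, with 2 rows without a probe ID left out. That these values are linear and still hold background was read from their range, and no header states it. Per the file headers, the authors also deposited a detection p-value for every probe and array; it was taken to be Illumina's usual comparison with negative control beads, which the headers do not spell out. BeadStudio is named, without version or settings, in the submitters' processing notes. The authors' value table of 14788 probes gives intensity after a scaling that the sources used here do not describe; its columns follow the non-normalised arrays (r of 0.9998 or more on the log scale) and it served as an alternative.

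Background was corrected with limma 3.58.1 (R 4.3.3) from the detection p-values (nec, offset 16), arrays were quantile normalised and values taken as log2. Detection in at least 2 arrays at a p-value under 0.05 kept 14058 probes and removed 11638. Probes were named from the platform annotation (13928 probes, 13923 symbols updated through gene ID). All 5 groups were fitted together with limma (lmFit, eBayes, 11 residual degrees of freedom), with Benjamini-Hochberg adjustment across every kept probe and a threshold of 0.05. A gene counts as past it when its brightest probe passes. For a bound ("at least"), each array on which a probe was dim was given the lowest signal among that array's detected probes where this was higher than the probe's own. A bound compares group means and carries no sampling error.

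The fit was tested on simulated data with 50 probes changed at each size. At a log2 change of 0.5 it recovered 20% in KO, 26% in DKO and 14% in DKOhet against control, and 64% by class. At a change of 1 it recovered 72%, 68% and 50%, and 88% by class. The simulation changed far fewer probes than passed in the same comparisons of the data, and the adjustment is stricter when fewer probes change. These percentages may therefore understate recovery in the data. A member that did not pass may still differ by such sizes. Members and lists were chosen with earlier results of these data known. All members are described; of the 2 retinoid lists, genes past the threshold, or else those with the smallest p, are named. For likeness, the 3 genes with the highest r were taken. The labels do not say whether arrays are separate embryos, so the p-values cover no more than the spread among arrays, some of which may be technical. Alternatives covered background, offset, scaling, filter, beadchip, replicate block and single arrays left out.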

Additional observations from a re-analysis of the deposited data

Results flagged for a closer look

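Of 22 sets of 4 arrays examined (the 11 probes in the DKO hearts and in the controls), 2 held an array far from the other 3, and chance alone gives about 1 in 20. Both were the 4th control. On the Rara probe ILMN_2661242 it read 7.48, against 6.37 to 6.46 in the other controls, and it was the single Rbpj-expressing array on which Rara was detected. On the Aldh1a2 probe ILMN_2630753 it read 7.08, against 7.69 to 7.80 in the other controls.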

How the results depend on the processing

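No member changed direction in any setting among the results that passed. Rarb and Rara by class passed in 26 of 27 settings each and missed within beadchip 2 alone, and Rarb (ILMN_2886828) in DKO against control passed in 27 of 28. Counts of member genes past the threshold moved as follows. KO against control gave 0 under median scaling, within beadchip 1, within beadchip 2, with the replicate block, and with only the groups compared in the fit. DKO against control gave 2 within beadchip 1 (Rara joining Rarb) and 0 within beadchip 2. DKOhet against control gave 0 within beadchip 2. DKO against hetDKO gave 2 within beadchip 1, 2 with only the groups compared and 0 within beadchip 2. Rbpj-deleted against Rbpj-expressing gave 0 within beadchip 2. With single arrays left out, the counts ran from 0 to 1 in KO, 1 to 2 in DKO and 0 to 2 in DKOhet hearts against control, and from 0 to 2 in DKO against hetDKO. The KO count was 0 without the 3rd KO, the 3rd hetDKO or the 1st, 3rd or 4th control array. Without the 1st KO array Rdh10 passed in place of Rarb, though no remaining KO array detected its probe. The DKOhet count was 0 without the 2nd DKOhet array and 2 without the 1st or without the 4th control, which also gave 2 in DKO. The DKO against hetDKO count was 0 without the 2nd hetDKO array and 2 without either DKOhet array or the 4th control; a lone DKOhet array was then assumed to vary like the other groups.

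Over all probes, KO against control had 1061 calls, 253 within beadchip 1, 95 within beadchip 2 and 353 with only the groups compared. DKO against control had 1853, and 457 and 22 within the beadchips. DKOhet against control had 1210, 27 within beadchip 2 and 260 with only the groups compared. DKO against hetDKO had 1104, and 439 and 4 within the beadchips. The class comparison had 3713, and 2372 and 154. DKO against KO had 2, 4 within beadchip 1 and 59 within beadchip 2. Median scaling set the higher calls at 35.5% of DKOhet calls, against 49.9%, with shifts of the median of all probes of at most 0.06. The labels do not say that replicate numbers pair the samples, and not every pair passed the limit of 0.1 set for calling them paired: in their deviations from group means, same-numbered arrays correlated at -0.01 to 0.35 (median 0.13, 27 pairs; 0.18 over 19 pairs without DKOhet). The median was 0.07 for arrays of the same beadchip with another number and -0.12 across beadchips, so same-numbered arrays were on the median the most alike, and a shared factor cannot be told from the labels. With the replicate block the class difference of Rarb was 0.69 (limma adjusted p = 0.000409) and of Rara 0.74 (adjusted p = 0.00815), and the KO difference of Rarb was 0.47 (adjusted p = 0.0611). The small number of arrays limits precision. The probes of Rara, Rxrg and Rdh10 and ILMN_1246864 of Rarb were undetected on some arrays, where the offset understates differences. The same holds for other list genes, among them Rxra, Adh1, Rbp4, Dhrs4, Tbx18, Nkx2-1 and Dbx1.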
